A study of Homo sapiens with 6 samples.

Results

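The human mitochondrial genome is a small circle that is transcribed inside the organelle, and its transcripts were examined in the established lung adenocarcinoma cell line PC9. Members were all rows of the deposited gene table whose name starts with MT-, which gave 37 of 58174 rows: 13 mRNAs, 2 rRNAs and 22 tRNA genes. All 37 passed the filter on low counts. Total RNA of PC9 cells was sequenced in 2 groups of 3 libraries. Cells of the knockdown group received an antagomir, a chemically modified antisense oligonucleotide, against tsRNA-5001a, a small RNA cut from a tRNA. Cells of the control group received the negative control antagomir. The gene table does not measure tsRNA-5001a, so the knockdown was not checked. The labels give no dose or time and do not say whether each library is its own culture. A p-value here therefore sets the difference against library spread that may be only technical.

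Both strands of the mitochondrial genome are transcribed into long RNAs that cover many genes. The heavy-strand promoter transcript carries both rRNAs, 12 mRNAs and 14 tRNAs, which are listed here on the plus strand. The light-strand promoter transcript carries MT-ND6 and 8 tRNAs, listed on the minus strand. The tRNAs lie between the other genes, and their excision by RNase P and ELAC2 releases mRNAs and rRNAs. The mRNAs encode core subunits of respiratory complexes I, III, IV and V, and are translated by ribosomes built on MT-RNR1 and MT-RNR2. Steady levels of transcripts from 1 precursor can differ because each RNA is processed, polyadenylated and degraded on its own.

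Positions of all 37 rows equal those of GENCODE release 29 on GRCh38, and the sequences below were read from its transcripts. The first set holds the 4 neighbouring light-strand tRNA genes that took most tRNA counts. MT-TA lies at MT:5587-5655, MT-TN at MT:5657-5729, MT-TC at MT:5761-5826 and MT-TY at MT:5826-5891, all on the minus strand. Capitals mark the anticodon.
MT-TA: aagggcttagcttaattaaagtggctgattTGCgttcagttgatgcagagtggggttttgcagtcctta
MT-TN: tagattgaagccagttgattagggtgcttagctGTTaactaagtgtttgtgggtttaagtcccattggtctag
MT-TC: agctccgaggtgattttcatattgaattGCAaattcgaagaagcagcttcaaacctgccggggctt
MT-TY: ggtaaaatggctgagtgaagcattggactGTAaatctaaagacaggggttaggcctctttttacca

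The second set shows places where mRNAs share bases, so that a read there can belong to either gene. MT-ATP8 and MT-ATP6 share 46 bases at MT:8527-8572, and MT-ND4L and MT-ND4 share 7 bases at MT:10760-10766, all on the plus strand. Each line gives the shared bases in capitals with 20 bases on either side.
MT-ATP8 to MT-ATP6: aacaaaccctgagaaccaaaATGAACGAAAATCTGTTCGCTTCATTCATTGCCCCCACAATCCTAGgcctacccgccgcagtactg
MT-ND4L to MT-ND4: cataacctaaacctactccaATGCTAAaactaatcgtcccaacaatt

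The third set gives the first 60 bases of the light-strand mRNA MT-ND6 (MT:14614-14673, minus strand) beside those of MT-CO1 (MT:5904-5963) and MT-ND4 (MT:10760-10819), with each G in capitals. MT-ND6 held 35.6% G and 7.0% C over its whole length. The 12 heavy-transcript mRNAs held 6.3% to 16.2% G and 29.5% to 36.0% C.
MT-ND6: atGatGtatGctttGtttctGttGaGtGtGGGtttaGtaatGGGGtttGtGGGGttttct
MT-CO1: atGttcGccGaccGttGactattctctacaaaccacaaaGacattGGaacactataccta
MT-ND4: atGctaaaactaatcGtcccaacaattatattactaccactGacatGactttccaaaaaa

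Libraries held 32342017 to 40066223 counts. In edgeR's quasi-likelihood fit over 19040 genes, 223 (1.17%) passed an adjusted p of 0.05, 209 higher (1.10%) and 14 lower (0.0735%). The 6 epithelial markers listed for the line (EPCAM, KRT8, KRT18, KRT19, CDH1 and EGFR) summed to 8973 to 11642 CPM (counts scaled to a common library total after TMM normalisation) in knockdown libraries and 10652 to 11890 in controls. The 5 fibroblast markers summed to 41.1 to 61.0 CPM after knockdown and 40.1 to 47.0 in controls, with LUM at 0 in every library. The 5 immune markers summed to 56.3 to 72.8 and 54.9 to 66.9 CPM, with MS4A1 at 0, and the 3 endothelial markers to 31.3 to 40.6 and 20.7 to 37.3 CPM. Under 1 CPM were 2 of the fibroblast, 4 of the immune and 1 of the endothelial markers. The immune sum thus came mostly from the remaining immune marker. The part of these markers in the results was not tested.

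The libraries numbered 2 stood apart in the mitochondrial rows. Control library 2 was the highest of the 6 libraries for 26 of 37 members and for 11 of 13 mRNAs. Knockdown library 3 was the lowest for 26 of 37 members. Knockdown library 2 had another balance among the members. With the overall mRNA level of each library set aside, each library was compared with the median of the other libraries. In knockdown library 2, 10 members departed from that median by over 0.5 on the log2 scale, against 0 to 4 in each other library. That threshold was chosen after the values were seen. Values that these 2 libraries moved by over 1.5 times are therefore also given without them for the mRNAs.

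The mitochondrial genome took 5.69%, 5.62% and 5.04% of all counts in the knockdown libraries, in the order 1, 2, 3. In the control libraries it took 6.18%, 7.51% and 5.26%, and later values keep this order. The means were 5.45% ± 0.360 and 6.32% ± 1.13 (SD, n = 3 each). Control library 3 lay below 2 of the knockdown libraries, so the groups overlapped. The mean difference of -0.864 percentage points became -0.268 without control library 2, -0.355 without both libraries numbered 2 and -1.39 without control library 3. It was -1.24 when the 100 most abundant nuclear genes were left out of the total. Messenger RNAs alone took 4.65%, 4.27% and 3.99% of all counts after knockdown and 5.16%, 6.33% and 4.21% in controls. The rRNAs took 0.964%, 1.27% and 0.975% after knockdown against 0.929%, 1.07% and 0.966%. The 22 tRNA genes together took 0.0733% to 0.0862% after knockdown and 0.0840% to 0.104% in controls. In bulk RNA, fewer mitochondrial transcripts per cell and more RNA from other genes cannot be told apart, because these are shares of a total.

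**Figure D1:**
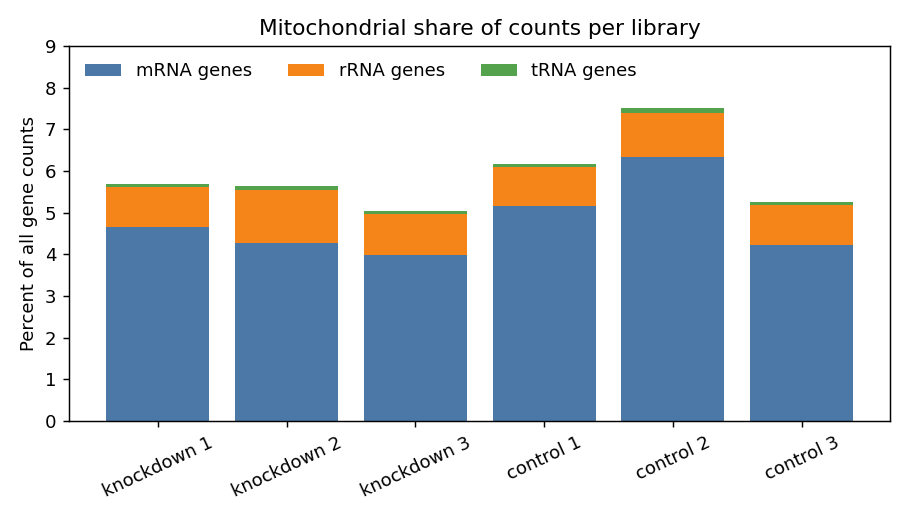
Share of each library's counts, in percent of all counts, that fell in mitochondrial mRNA, rRNA and tRNA genes, with 1 bar for each of the 3 knockdown and 3 control libraries. Control library 2 stands highest at 7.51% and knockdown library 3 lowest at 5.04%, and control library 3 (5.26%) lies below knockdown libraries 1 and 2.

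Levels were compared between members per length, as CPM per kb of gene, averaged over all 6 libraries. The subunits of cytochrome c oxidase (complex IV), which passes electrons to oxygen, led. MT-CO2 stood at 9408 CPM per kb (SD 2189 over 6 libraries), MT-CO1 at 9212 and MT-CO3 at 7348. MT-CO2 was above MT-CO1 in only 4 of 6 libraries, so these neighbours in the order were not separated. MT-CO1 was above MT-CO3 in 6 of 6.

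MT-RNR2, the large-subunit rRNA, followed at 5761 CPM per kb, above MT-RNR1, the small-subunit rRNA, at 1377. How library preparation treated rRNA is not stated here. These rRNA values are therefore levels among the sequenced reads, and do not show how abundant the rRNAs are in the cells. MT-ND4 (4976) and MT-ND4L (4741), which share 1 transcript and overlapping bases, exchanged places between libraries. MT-ND2 (2940) and MT-ND1 (2924), both in the membrane arm of complex I, were each the higher in 3 of 6 libraries. MT-CYB, the complex III subunit, stood at 2348, MT-ND3 at 2206, MT-ATP6 at 1758 and MT-ATP8 at 1619. The lowest mRNAs were MT-ND5 at 1206 and MT-ND6 at 758 CPM per kb, and MT-ND6 was below MT-ND5 in 6 of 6 libraries. Counts assigned to nuclear copies of mitochondrial DNA were not added to these levels. Per 100 counts of its own gene, MTATP6P1 held 43.0 to 67.6, MTND2P28 15.2 to 16.4, MTCO1P12 4.14 to 8.66 and MTND1P23 0.400 to 1.28. The places of MT-ATP6, MT-ND2, MT-ND1, MT-CO1 and MT-CO2 in the order may thus rest on how reads were assigned, which was not tested.

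A set of 4 tRNA genes, MT-TC, MT-TN, MT-TY and MT-TA, had counts per length like those of mRNAs, at 3737, 3155, 2464 and 1656 CPM per kb. They are the light-strand tRNAs for cysteine, asparagine, tyrosine and alanine printed above, and they lie side by side between MT-ND2 and MT-CO1 around the light-strand origin of replication. They held 85.9% to 89.7% of all tRNA gene counts in each library, and stood at 27.3% to 61.5% of the mean level of the flanking mRNAs. The other 18 tRNA genes had 7.64 to 307 CPM per kb, or 0.126% to 13.3% of their flanking genes. MT-TW, the tryptophan tRNA gene next to MT-TA on the opposite strand, was the lowest of all at 7.64 CPM per kb, with 13 to 24 counts per library. This grouping of tRNA genes was made after their values were seen. The tRNA genes span only 59 to 75 bases, and reads of mature tRNAs were not separated from reads of longer transcripts. These values therefore compare counts per length, and do not show how abundant the tRNAs are beside the mRNAs. Whether the authors' counting used strand is not given in the sources used here, so reads of a minus-strand gene and of the plus-strand transcript over the same bases cannot be told apart.

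**Figure D2:**
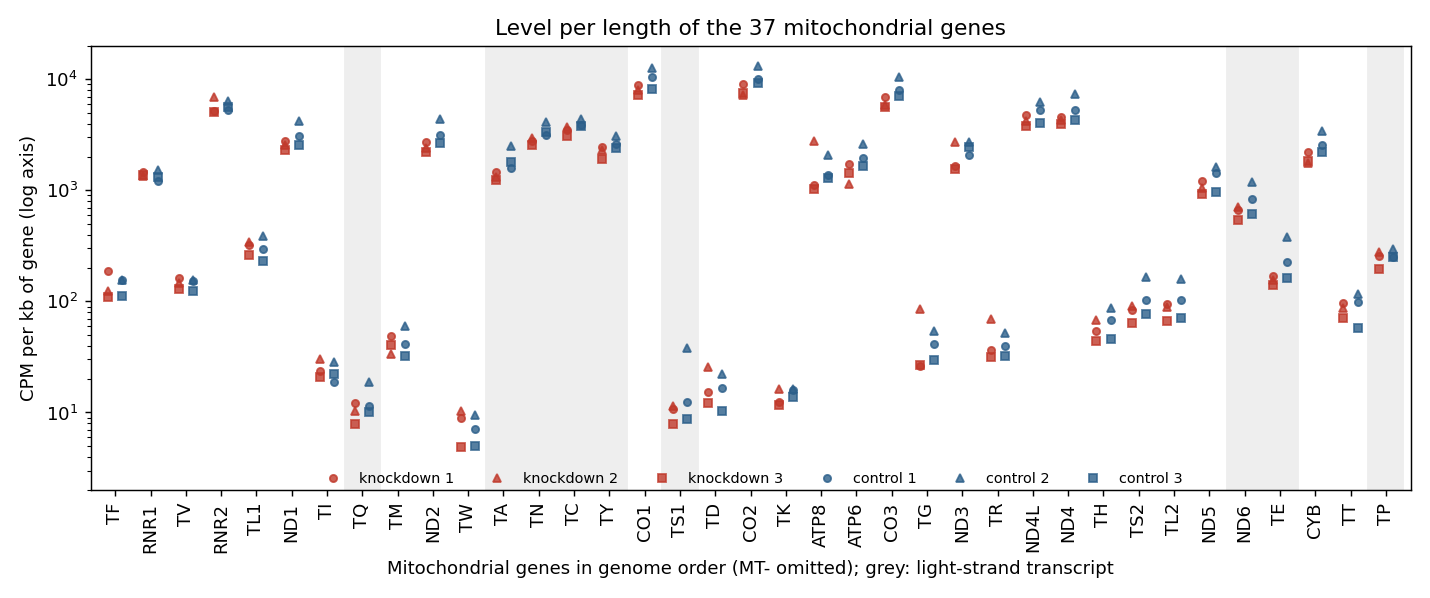
Level of each of the 37 mitochondrial genes in genome order, as CPM per kb of gene on a log axis, with 1 point per library and colours for the 2 groups, and grey bands for genes of the light-strand transcript. The points for MT-TA, MT-TN, MT-TC and MT-TY lie in the range of the mRNAs, while the other 18 tRNA genes average 307 CPM per kb or less.

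The question of the comparison was how transcript levels differ when tsRNA-5001a is blocked. Of the 37 members 0 passed the adjusted p of 0.05 in edgeR, against 1.17% of all tested genes, and the lowest adjusted p was 0.192 (MT-CO3 and MT-TA). The fitted log2 fold change, knockdown over control, was below 0 for 28 members and above 0 for 9, with a median of -0.29 against 0.05 over all tested genes. It was below 0 for 12 of 13 mRNAs, with a median of -0.40 and a range of -0.53 to 0.06. At an unadjusted p under 0.05 in edgeR there were 9 members, all with lower values, where 6.71% of all tested genes were lower by that rule. CPM of the groups did not overlap for 6 members, all lower after knockdown, which is 16.2% of members where 10.8% of all tested genes were lower in this way. DESeq2 also called 0 members, against 3.68% of all tested genes, and 11 members had an unadjusted p under 0.05 there, against 15.6%. The count of 9 in edgeR moved with the setting. It was 4 (10.8% of members) without control library 2, where 10.9% of all tested genes passed in either direction. The count was also 4 without knockdown library 3 (11.8% of all tested genes) and without both libraries numbered 2 (13.4%). With scaling by library size only (18.1%) and with the abundance trend removed (14.2%) it was 4 again. Without knockdown library 1 it was 14, or 37.8% of members beside 18.5% of all tested genes. Without control library 3 it was 16, or 43.2% beside 11.6%. In simulated counts the edgeR fit recovered 8% of genes set 1.5 times higher and 54% of genes set 2 times lower. The 0 calls among members therefore do not show unchanged levels.

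Single libraries bore on the size of these values. Without control library 2 the mRNA median was -0.18, without control library 3 -0.56 and without knockdown library 1 -0.50. It was -0.41 without knockdown library 2 and -0.24 without both libraries numbered 2. Abundant nuclear genes also had values below 0 more often than above. The 562 tested nuclear genes above 8 log2 CPM had a median of -0.17, and the 74 above 10 log2 CPM had a median of -0.36, with 69 of them below 0. With the trend of fold change with abundance removed, the mRNA median was -0.03, and MT-CO1 (0.12) and MT-ND4 (0.03) turned above 0. Scaling by library size only moved the median of all tested genes to 0.17 and gave an mRNA median of -0.27. The part of abundance in the mRNA values was not tested further.

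**Figure D3:**
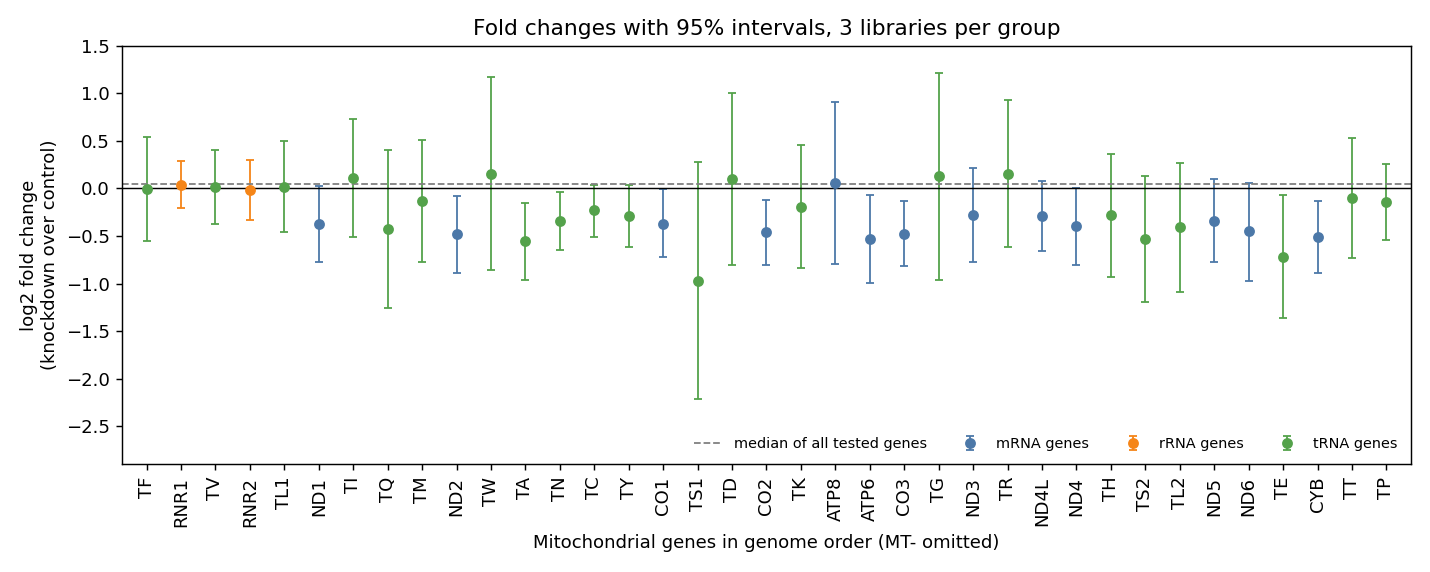
Fitted log2 fold change (knockdown over control) of the 37 mitochondrial genes in genome order, with 95% intervals from the edgeR fit that are not adjusted for the number of genes. Of the 13 mRNAs 12 lie below 0, the rRNAs lie at -0.02 and 0.04, and 0 members passed an adjusted p of 0.05.

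Among the mRNAs, MT-CO3 and MT-CO2 of complex IV had the lowest edgeR adjusted p, while MT-CO1 came after MT-CYB, MT-ND2 and MT-ATP6. MT-CO3 stood at 5460, 4572 and 4425 CPM after knockdown and at 6349, 8188 and 5572 CPM in the controls. Its groups did not overlap, though the gap between knockdown library 1 and control library 3 was small, and its log2 fold change was -0.48 ± 0.15 (SE, edgeR adjusted p = 0.192). MT-CO2, which holds a copper site that takes electrons from cytochrome c, stood at 6208, 4942 and 5105 CPM after knockdown and 6953, 9058 and 6345 in controls, again without overlap. Its log2 fold change was -0.46 ± 0.15 (SE, edgeR adjusted p = 0.198). MT-CO1, the catalytic subunit with the heme and copper centre, stood at 13798, 12348 and 11097 CPM after knockdown and 16128, 19338 and 12520 in controls. Control library 3 lay below knockdown library 1, and the log2 fold change was -0.37 (95% interval -0.72 to -0.01, edgeR adjusted p = 0.294).

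MT-CYB, the cytochrome b of complex III, stood at 2518, 2003 and 2112 CPM after knockdown and 2953, 3945 and 2540 in controls. The groups were separate only by the step from 2518 to 2540, and the log2 fold change was -0.51 ± 0.17 (SE, edgeR adjusted p = 0.203). Without both libraries numbered 2 the value was -0.25 for MT-CYB, -0.24 for MT-CO2, -0.27 for MT-CO3 and -0.20 for MT-CO1.

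The 7 complex I mRNAs, whose proteins form the membrane arm that pumps protons, had log2 fold changes of -0.48 to -0.28 with a median of -0.37. MT-ND2 was the lowest, at 2830, 2535 and 2299 CPM after knockdown and 3319, 4613 and 2785 in controls, with overlap between knockdown library 1 and control library 3 (-0.48, edgeR adjusted p = 0.242). MT-ND3 stood at 577, 952 and 543 CPM after knockdown and 719, 942 and 846 in controls. Knockdown library 2 was thus the highest of all 6 for MT-ND3, while the other knockdown libraries were below every control. Its log2 fold change moved from -0.28 to -0.59 without knockdown library 2 (edgeR adjusted p 0.561 and 0.129). MT-ND1, MT-ND4, MT-ND4L and MT-ND5 had values of -0.37, -0.40, -0.29 and -0.34. Without both libraries numbered 2 they had -0.15, -0.17, -0.13 and -0.16, MT-ND2 had -0.25 and MT-ND3 -0.48.

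The complex V mRNAs differed from each other. MT-ATP6, the channel subunit of ATP synthase, stood at 1189, 780 and 972 CPM after knockdown and 1340, 1780 and 1121 in controls, which is -0.53 ± 0.20 on the log2 scale (SE, edgeR adjusted p = 0.252). MT-ATP8, a small subunit encoded on the same mRNA, stood at 232, 579 and 215 CPM after knockdown and 284, 433 and 267 in controls. Knockdown library 2 had the highest MT-ATP8 value and the lowest MT-ATP6 value of all 6 libraries. The MT-ATP8 to MT-ATP6 ratio of counts was 0.742 there and 0.195 to 0.243 in the other 5. The log2 fold change of MT-ATP8 was 0.06 with all libraries, -0.56 without knockdown library 2 and -0.30 without both libraries numbered 2. MT-ATP6 was at -0.33 without control library 2 and -0.19 without both. The sum of both genes stood at 1421, 1359 and 1186 CPM after knockdown and 1624, 2213 and 1388 in controls, with a slight overlap.

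Complex IV took 55.6%, 53.8% and 55.0% of mitochondrial mRNA counts after knockdown and 55.7%, 53.8% and 55.9% in controls. Complex I took 35.8%, 37.9% and 36.3% against 35.7%, 37.1% and 35.1%. Complex III took 4.93% to 5.63% against 5.59% to 5.81%, and complex V 3.10% to 3.35% against 3.07% to 3.26%. All 4 shares of counts overlapped between the groups. The difference of means for complex I, 0.680 percentage points, was 0.0550 without knockdown library 2 and 1.26 without control library 2. From the deposited TPM the complex IV difference was -1.32 in place of -0.335, and complex III (3.92% to 4.63% against 4.63% to 4.78%) did not overlap, by a step smaller than the rounding.

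The rRNAs, which form the core of the mitochondrial ribosome, had values near 0 in the fit with all libraries, but not under every scaling. MT-RNR2 turned positive when scaled by library size only (0.11) or with the abundance trend removed (0.45). MT-RNR1 was at 0.17 and 0.31 under the same settings (edgeR adjusted p 0.377 and 0.174). MT-RNR2 stood at 8104, 10819 and 7859 CPM after knockdown and 8341, 10012 and 8750 in controls, which is -0.02 on the log2 scale (95% interval -0.33 to 0.30, edgeR adjusted p = 0.961). MT-RNR1 stood at 1387, 1290 and 1318 CPM after knockdown and 1167, 1450 and 1269 in controls, which is 0.04 on the log2 scale (95% interval -0.21 to 0.29, edgeR adjusted p = 0.887). The groups overlapped for both. As a share of all mitochondrial counts the rRNAs took 16.9%, 22.6% and 19.4% after knockdown and 15.0%, 14.2% and 18.4% in controls, again with overlap.

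Set against the mRNAs of the same library, the order was clearer for MT-RNR1. It had 3.03, 3.18 and 3.51 counts per 100 mitochondrial mRNA counts after knockdown and 2.21, 2.13 and 2.90 in controls, so the groups did not overlap. MT-TV, the valine tRNA between the rRNAs, had 0.0240 to 0.0250 counts per 100 mRNA counts after knockdown and 0.0159 to 0.0200 in controls. MT-TL1, the leucine tRNA after MT-RNR2, had 0.0523 to 0.0631 against 0.0394 to 0.0428. MT-RNR2 and MT-TF, the other genes at the start of the heavy transcript, overlapped between the groups on this measure. The log2 fold changes of these first 5 genes were -0.02 to 0.04. They were grouped, and these ratios chosen, after their values were seen, and their difference from the mRNAs was not tested. On CPM, the groups did not overlap for 24.3% of all tested genes, in either direction. Such a share over all genes was not made for these ratios. The part of library preparation in the rRNA counts was also not tested.

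**Figure D4:**
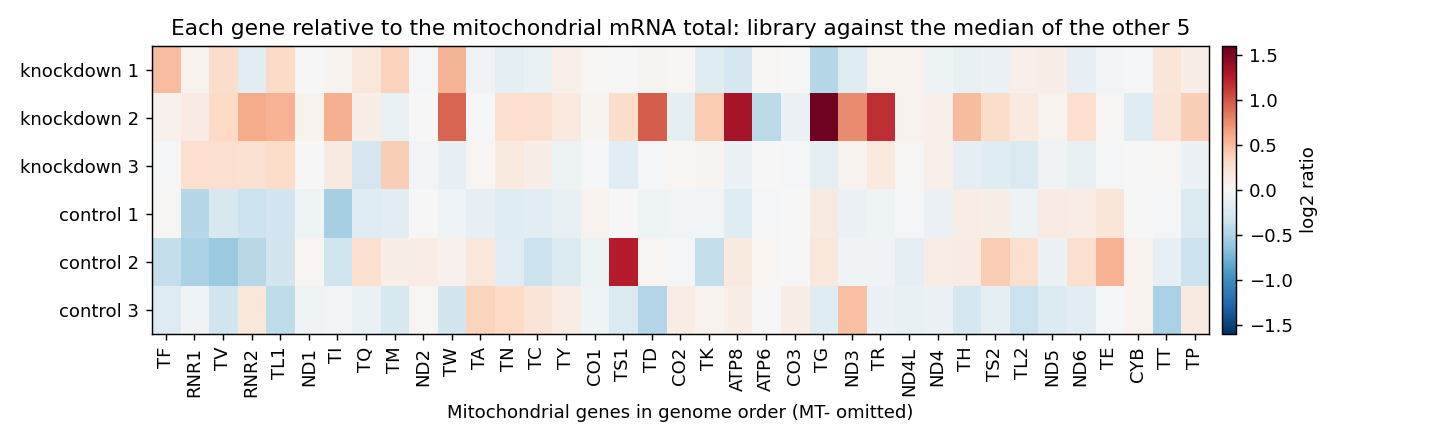
Departure of each mitochondrial gene in each library from the median of the other libraries, in log2 units. The overall mRNA level of each library was set aside first (genes in genome order, 1 row per library). Knockdown library 2 stands out with MT-ATP8 at 1.32, MT-TG at 1.56 and MT-TR at 1.18. MT-RNR1, MT-TV, MT-TL1, MT-TI, MT-TR, MT-ND4L and MT-TT are above 0 in the 3 knockdown libraries and below 0 in the 3 controls. MT-ND2 and MT-CO3 are the other way round. On CPM, which is another measure, the groups did not overlap for 24.3% of all tested genes, in either direction. No such share over all genes was made for the departures shown.

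From the light strand, MT-ND6, a complex I membrane subunit, stood at 346, 375 and 287 CPM after knockdown and 439, 621 and 320 in controls. Control library 3 lay below 2 knockdown libraries, and the log2 fold change was -0.45 ± 0.23 (SE, edgeR adjusted p = 0.361). It was -0.18 without control library 2 and -0.26 without both libraries numbered 2. MT-ND6 took 0.756%, 0.923% and 0.764% of mitochondrial mRNA counts after knockdown and 0.830%, 0.914% and 0.733% in controls. The ND6 share was thus highest in the library numbered 2 of each group, and the groups overlapped.

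The 8 light-strand tRNA genes all had log2 fold changes below 0, from -0.97 to -0.14 with a median of -0.39. Their summed level was 729, 736 and 627 CPM after knockdown and 803, 1018 and 811 in controls, without overlap. MT-TA, the alanine tRNA, stood at 101, 91.1 and 85.9 CPM after knockdown and 110, 173 and 125 in controls, a log2 difference of -0.55 ± 0.18 (SE, edgeR adjusted p = 0.192). MT-TN had 204, 218 and 186 CPM against 230, 299 and 244 (-0.34, edgeR adjusted p = 0.262), and MT-TC 231, 244 and 205 against 255, 291 and 253 (-0.23, edgeR adjusted p = 0.371). These 3 genes did not overlap between the groups, while MT-TY did (-0.29, edgeR adjusted p = 0.364). Without control library 2 the value of MT-TA was -0.35, and without both libraries numbered 2 it was -0.33.

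MT-TE, the glutamate tRNA beside MT-ND6, stood at 11.8, 10.8 and 9.79 CPM after knockdown and 15.7, 26.2 and 11.3 in controls, which is -0.72 on the log2 scale (edgeR adjusted p = 0.264), or -0.33 without control library 2. MT-TS1, a serine tRNA, had the lowest fitted value of all members, -0.97, and it rested on 85 counts in control library 2 where the other 5 libraries held 23 to 32.

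The 14 heavy-transcript tRNA genes were split evenly, with 7 log2 fold changes below 0, 7 above and a median of 0.01. Their summed level was 82.0, 84.9 and 62.6 CPM after knockdown and 80.9, 102 and 60.1 in controls, so libraries of 1 group differed more than the groups. MT-TG and MT-TR, which flank MT-ND3, were highest in knockdown library 2. MT-TG, the glycine tRNA, stood at 1.77, 5.77 and 1.81 CPM after knockdown and 2.81, 3.72 and 2.02 in controls, and MT-TR, the arginine tRNA, at 2.35, 4.53 and 2.07 against 2.59, 3.35 and 2.09. The log2 fold change of MT-TG was 0.13 with all libraries and -0.68 without knockdown library 2.

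Several mitochondrial mRNAs end without a complete stop codon, which polyadenylation of the RNA then supplies. The 6 genes whose annotated sequence ends in this way (MT-ND1, MT-ND2, MT-CO3, MT-ND3, MT-ND4 and MT-CYB) had a median of -0.44 on the log2 scale, and the 7 others one of -0.37. This split was made after the values were seen and was not tested.

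Copies of mitochondrial DNA in the nuclear genome can share reads with the members. The table held 405 rows named as such copies, of which 104 had a count and 15 were tested, with 0 past the adjusted p of 0.05 in edgeR. They held 3.61, 2.73 and 3.44 counts per 100 mitochondrial counts after knockdown and 3.57, 4.25 and 3.54 in the controls. Control library 2 was the highest for 14 of the 15, and knockdown library 2 the lowest for 12. The copies with the highest levels lie side by side on chromosome 1, between 629062 and 634922 in the deposited positions.

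MTCO1P12, a copy of MT-CO1, stood at 970, 512 and 739 CPM after knockdown and 1070, 1675 and 870 in controls, so the groups overlapped. MTATP6P1 held 44.4, 67.6 and 47.7 counts per 100 MT-ATP6 counts after knockdown and 43.0, 45.6 and 47.8 in controls, and knockdown library 2 was the one apart. MTND2P28 held 15.2 to 16.4 per 100 MT-ND2 counts in every library. MTCO3P12 and MTND1P23 had log2 fold changes of -1.18 and -1.07 (edgeR adjusted p 0.199 and 0.241). With these copies added to their mitochondrial genes, an alternative chosen after the values were seen, the mRNA median stayed at -0.40 and 0 members passed.

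**Figure D5:**
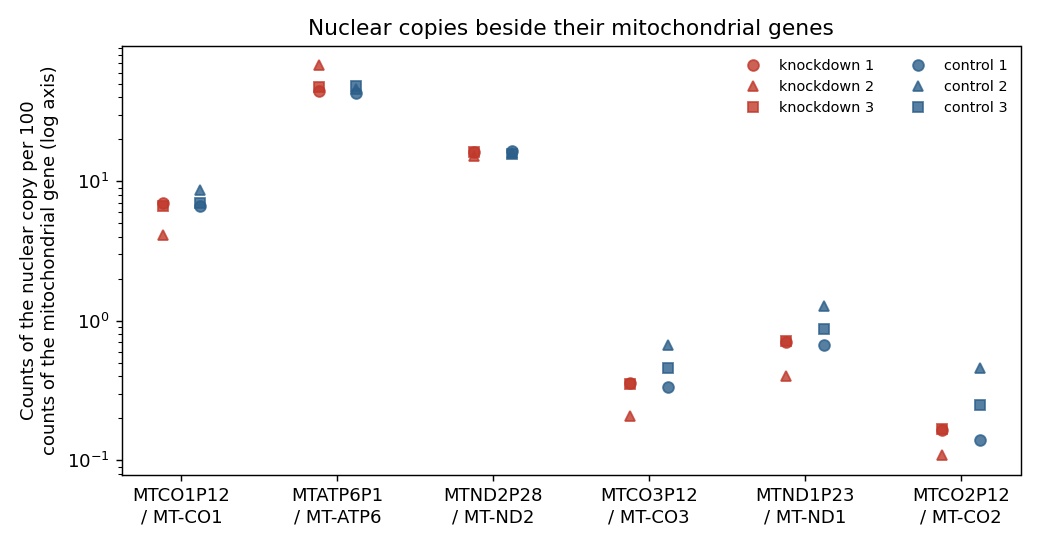
Counts of abundant nuclear copies, each per 100 counts of its own mitochondrial gene, on a log axis. Each copy has 1 point for each of the 3 knockdown and 3 control libraries. Knockdown library 2 stands highest for MTATP6P1 at 67.6 and lowest for the other copies shown. Control library 2 stands highest for MTCO1P12 at 8.66, MTCO3P12 at 0.667 and MTND1P23 at 1.28, but not for MTATP6P1 or MTND2P28.

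Nuclear genes that make, cut and translate mitochondrial RNA were read from the same fit. Across 5 lists with 99 tested genes, 0 passed the adjusted p of 0.05 in edgeR and 8 had an unadjusted p under 0.05, where the shares over all tested genes were 1.17% and 16.5%. The genes named are the 3 with the lowest p in each list. In transcription and DNA maintenance (21 tested, median log2 fold change 0.02) these were MRPL12 at -0.30, the RNA polymerase gene POLRMT at -0.27 and the DNA polymerase gene POLG at -0.23, with edgeR adjusted p of 0.327 or above. In RNA processing, stability and decay (23 tested, median -0.06) PTCD2, a pentatricopeptide protein gene, stood at 14.7, 19.3 and 13.3 CPM after knockdown and 11.0, 9.36 and 8.77 in controls. PTCD2 did not overlap between the groups, and its log2 fold change was 0.70 ± 0.19 (SE, edgeR adjusted p = 0.141).

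SLIRP, whose protein binds LRPPRC and stabilises mitochondrial mRNAs, stood at 70.7, 78.9 and 70.7 CPM after knockdown and 81.6, 113 and 94.0 in controls (-0.39, edgeR adjusted p = 0.247). HSD17B10, a subunit of mitochondrial RNase P, had -0.40 (edgeR adjusted p = 0.288). In rRNA and tRNA modification (25 tested, median 0.00) the values were -0.40 for MRM3, an rRNA methyltransferase gene, -0.50 for METTL17 and -0.34 for GTPBP3, with edgeR adjusted p of 0.217 or above.

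In translation factors (23 tested, median -0.02) OXA1L, the insertase that places mitochondrial products in the inner membrane, stood at 114, 111 and 108 CPM after knockdown and 124, 164 and 163 in controls (-0.44, edgeR adjusted p = 0.187). TUFM, the elongation factor, had -0.39 (edgeR adjusted p = 0.210) and COX14, a complex IV assembly factor, -0.27 (edgeR adjusted p = 0.371). In regulators of biogenesis (7 tested, median 0.10) YY1, GABPB1 and GABPA had 0.27, 0.23 and 0.26, with edgeR adjusted p of 0.405 or above, and PPARGC1A was too low to be tested. The list medians lay between -0.06 and 0.10, beside 0.05 over all tested genes.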

How the data were processed

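Per the labels' protocols, the authors sequenced total RNA on an Illumina platform, mapped reads to a reference genome and counted those on each gene. The deposited table holds whole-number counts for each gene and library. It also holds TPM and FPKM made by the authors. Deposited TPM values were used only for an alternative set of shares, and the deposited FPKM values were not used. The sources used here do not give the aligner, the counter or the strand setting. The submitters' processing notes name hg19, but 56044 of 57836 genes shared with GENCODE release 29 (96.9%), and 37 of 37 mitochondrial rows, have GRCh38 positions and strand.

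Members and gene lists were chosen with earlier results of these data known. Genes were filtered with filterByExpr (minimum 10 counts), scaled by TMM and tested with edgeR 4.0.16 in R 4.3.3 (quasi-likelihood F-test, 3 knockdown against 3 control libraries), with Benjamini-Hochberg adjustment over 19040 genes at 0.05. A first fit used robust dispersion estimation and called 263 genes, 0 of them mitochondrial. It was replaced after that output was seen by the fit without it, which called 223, because earlier processing of these data had used that fit and the written design does not ask for robust estimation. The robust fit is kept as an alternative.

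CPM are counts scaled to a common TMM-normalised library total. Each standard error is the log2 fold change over the square root of F. Sums and shares were described with no test. All members may be named, with the 3 lowest p of each list and the 5 nuclear copies with the highest mean CPM. The fit was also run on simulated counts whose levels and spread came from the fit to these data. It recovered 8% of genes set 1.5 times higher, 56% set 2 times higher, 98% set 4 times higher and 54% set 2 times lower. Each of these sets held 50 genes, and 10 unchanged genes were called. Counts of library pairs within a group differed by a chi-square of 32.4 to 83.3 times its degrees of freedom. Each library was kept as a replicate, though this spread does not show that libraries are separate cultures.

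Alternatives were other scalings, no filter, DESeq2 1.42.0, limma-voom (limma 3.58.1), the replicate number as a block, removal of the abundance trend (lowess span 0.3), and leaving out each library. Added after seeing the data were the robust fit, leaving out both libraries numbered 2 and summing nuclear copies. Python 3.11.15 and matplotlib 3.10.9 drew the figures.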

Additional observations from a re-analysis of the deposited data

How the results depend on the processing

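Across 19 settings of the fit, 0 mitochondrial genes passed the adjusted p of 0.05, and the lowest adjusted p of any member was 0.0788 (MT-TA). The median of the 13 mRNAs, -0.40, stayed below 0 in each of them, but ranged from -0.56 to -0.18 with 1 library left out and was -0.03 with the abundance trend removed. The robust fit called 263 genes. The count of all genes past the test moved from 223 to 147 with no filter on low counts, 701 with DESeq2, 126 with the abundance trend removed, 47 without both libraries numbered 2 and 64 to 114 with 1 library left out. It was 34 with the replicate block. Over all tested genes, departures of same-numbered libraries from their group means correlated at 0.0083, -0.079 and -0.026. Other library spread also enters these values, so they cannot show whether same-numbered libraries share a culture or day. With the replicate block 0 members passed and the mRNA median was -0.37. From the deposited TPM the complex V share differed by 0.732 percentage points in place of 0.0355. Of the 37 members 22 were not reversed in any setting. With upper-quartile scaling the sign turned for MT-TF at 0.01. With scaling by library size only the sign turned for MT-TF at 0.11, MT-RNR2 at 0.11 and MT-TT at 0.02. With both libraries numbered 2 left out the sign turned for MT-TF at 0.15, MT-TM at 0.26, MT-ATP8 at -0.30, MT-TG at -0.43, MT-TR at -0.09 and MT-TT at 0.11. With DESeq2 size factors, and with DESeq2, the sign turned for MT-TV at -0.01 and MT-TL1 at -0.02. With the abundance trend removed the sign turned for MT-TV at -0.05, MT-RNR2 at 0.45, MT-TI at -0.10, MT-TW at -0.15, MT-CO1 at 0.12, MT-TD at -0.13, MT-TG at -0.04, MT-TR at -0.02 and MT-ND4 at 0.03. With limma-voom the sign turned for MT-ATP8 at -0.07 and MT-TG at -0.08. With the replicate block the sign turned for MT-ATP8 at -0.06 and MT-TG at -0.05. With 1 library left out the sign depended on the library for MT-TF (-0.32 to 0.14), MT-RNR1 (-0.04 to 0.13), MT-TV (-0.10 to 0.09), MT-RNR2 (-0.19 to 0.07), MT-TL1 (-0.16 to 0.22), MT-TI (-0.06 to 0.28), MT-TM (-0.32 to 0.14), MT-TW (-0.08 to 0.42), MT-TD (-0.28 to 0.38), MT-ATP8 (-0.56 to 0.31), MT-TG (-0.68 to 0.40), MT-TR (-0.29 to 0.36) and MT-TT (-0.35 to 0.12). The cause was not tested. Depth did not limit the mRNAs, but several tRNA genes had few counts, among them MT-TW, MT-TQ, MT-TS1, MT-TK and MT-TD.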
